A study of Homo sapiens with 18 samples.

Results

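Foregut endoderm made from H1 human embryonic stem cells, an established line, was given retinoic acid (RA) for 24 h, and its transcriptome was compared at the end of that day with that of cultures that had none. The comparison was set by the sample labels and uses 6 of the 18 libraries of the series. In the 3 day 6 RA libraries the wild-type H1 cells had received 2 µM all-trans RA from day 5 to day 6 of differentiation. In the 3 day 6 untreated libraries wild-type H1 cells of the same day had received none. The remaining 12 libraries were harvested at day 9, with RA on the same day of culture, with CHIR99021 and BMP4 for 72 h, with both in turn, or with neither. They serve here for the estimate of spread and for the few values named below. All groups come from 1 cell line. Whether the 3 libraries of a group came from separate cultures is not stated. The p-values therefore cover the spread between these libraries, which may be technical.

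RA is a small lipid made from vitamin A by retinaldehyde dehydrogenases and destroyed by CYP26 enzymes. In the nucleus it binds receptors of the RAR family, which sit with RXR partners on direct repeats of a short hexamer in DNA and switch from repression to activation when RA is bound. In the embryo RA gives cells a posterior position. It turns on HOX genes at the beginning of each cluster and restrains anterior programmes of the head and pharynx. In the gut tube it marks the part of the foregut that gives rise to lung, stomach, liver and pancreas.

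Libraries were bulk poly(A) RNA, so fewer cells of a type and less RNA per cell cannot be told apart. Total counts were 8.88, 12.11 and 6.95 M with RA and 7.53, 6.33 and 9.23 M without (M, 1000000 counts). The first principal component of the 6 libraries took 83% of the variance and separated the groups. Levels below are counts per 1000000 (CPM) on libraries scaled by trimmed mean of M-values, with means ± SD over 3 libraries. One property of the libraries ran with the groups. Among 88 pseudogenes that split the day 9 libraries, the share of reads on the 43 that are high in day 9 treated libraries was 93.1% to 94.1% in the RA libraries and 8.86%, 0.425% and 17.3% in the untreated libraries. Whatever produced this split cannot be told apart from RA at day 6. A fit with this share as a covariate called 95 genes, 43 higher and 52 lower, and turned the sign of 18 genes named below, HOXB1, KRT7 and CYP26A1 among them. It called at most 4 members of any gene list below, where the 4 were anterior and pharyngeal regulators, all lower. It has to extrapolate, because the groups do not overlap in the share. The treated day 9 groups range from 91.8% to 94.4%, high by the choice of pseudogenes that separate all of them from day 9 untreated libraries. They include cultures given CHIR99021 and BMP4 but never RA, which thus lie on the RA side. Of the 124 genes named below that were called at day 6, 31 had a level there nearer to the RA mean than to the untreated mean, on log2(CPM + 1). They were 6 of the 70 higher and 25 of the 54 lower genes, a count made after seeing the data across days and media. Levels in these cultures are quoted for genes of both kinds.

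A large part of the transcriptome differed between the RA and the untreated cultures. A gene is called here when its adjusted p from edgeR's quasi-likelihood test is below 0.05. Of 15531 tested genes, 7571 were called (48.7%), 3929 of them higher (25.3%) and 3642 lower (23.4%). The counts of calls in each gene list below stand against these shares. At least 2-fold, 1296 were higher (8.34%) and 1213 lower (7.81%), and at least 10-fold, 187 were higher and 193 lower. The libraries of the groups did not overlap for 8876 genes (57.2%). Pseudogenes made 114 of the 2-fold rises and 196 of the 2-fold falls, which left 1182 and 1017 other genes. The balance between rises and falls depended on the scale. On the deposited TPM (transcripts per 1000000, not rescaled), where the median gene was shifted by 0.174 in log2, 74.5% of 8309 calls were higher, against 51.9% of the calls on counts.

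**Figure D1:**
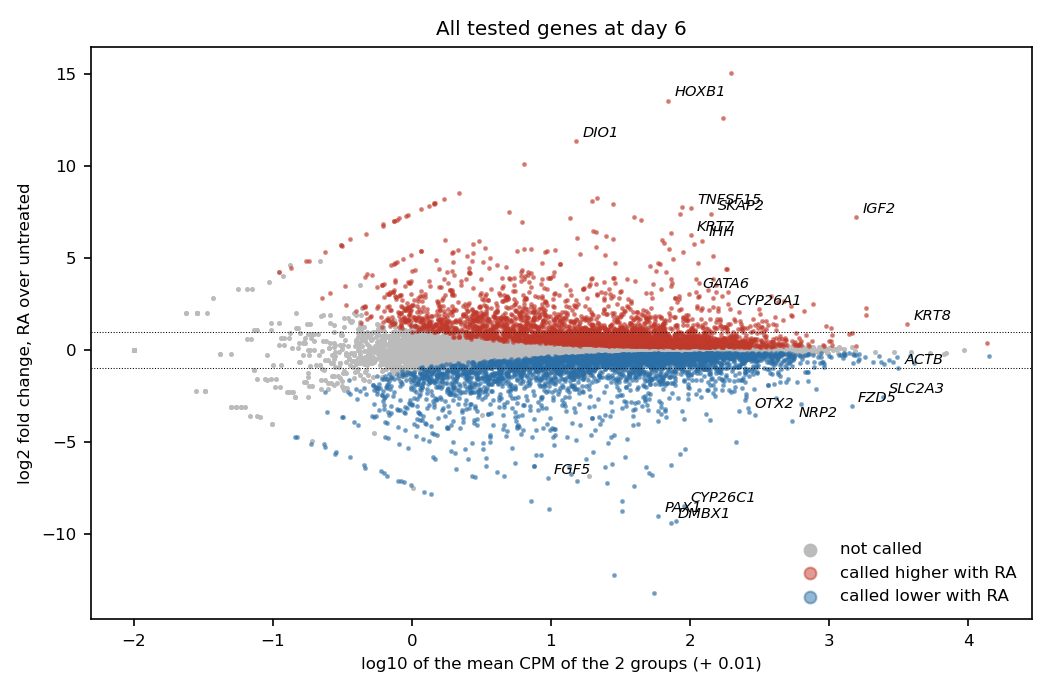
Log2 fold change (RA over untreated, day 6) of each tested gene against the log10 of its mean CPM. Red points were called higher and blue points lower with RA, grey points were not called, and dotted lines mark 2-fold. HOXB1 at 13.55, a fitted value against untreated libraries at 0, lies near the upper end. PAX1 lies at -9.03, and the lowest tested gene at -13.2. The cloud of called genes is of similar size on both sides.

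A few HOX genes, the homeobox genes that record position along the body axis, were called higher with RA. Of 39 HOX genes, 22 had no count in the RA libraries and 30 had none in the untreated libraries, and 8 passed the filter on low counts. Of these 8, 7 were called higher and 0 lower (edgeR, and 0 also at an unadjusted p below 0.05 and with DESeq2). The filter admitted these 7 through groups given RA. They had at most 14 counts each over the 3 untreated libraries, so a fall could hardly have been called. The remaining one, HOXC13, had no count in any day 6 library. HOXB1, a direct RA target in the hindbrain, had 118, 125 and 178 CPM in the RA libraries, against 0, 0 and 0 CPM in the untreated libraries. All 3 untreated libraries were at 0, so HOXB1 was at least 1044-fold higher with RA, taking 3 counts over the untreated group as the floor (adjusted p = 1.37e-13). HOXB1 had 0, 0 and 1 counts in the 3 day 9 CHIR99021 and BMP4 libraries.

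Its neighbours in the HOXB cluster on chromosome 17 followed at lower levels, in order of position. HOXB2 had 56.1, 53.6 and 57.9 CPM in the RA libraries, against 0.402, 0.318 and 0 CPM in the untreated libraries (log2 fold change 7.93 ± 0.42 SE, adjusted p = 2.35e-11). That fitted change was 8.64 without untreated replicate 1 and 7.20 without untreated replicate 3. HOXB3, with 16.6 ± 2.705 CPM with RA, against 0.657 ± 0.4097 CPM in untreated cultures, rose by 4.73 ± 0.50 on the same scale. Per unit of length, the deposited TPM in the RA libraries averaged 244.9 for HOXB1, 103.8 for HOXB2 and 6.08 for HOXB3. It was 3.70 for HOXB4 and 1.22 for HOXB5, both under the filter. Between HOXB6 and HOXB13 the sequence ended, with at most 5 counts for any of these genes over the 3 RA libraries except HOXB13 with 6. From the other clusters, HOXA2 averaged 1.85 CPM with RA, against 0 CPM without. HOXA3 was at 2.86 CPM with RA, against 0 CPM without. HOXC4 was at 1.37 CPM with RA, against 0.0358 CPM without. No HOXD gene passed the filter. The summed CPM of all 39 genes was 594 to 638 with RA and 0.859 to 1.75 without.

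The HOXA cluster's non-coding transcript HOTAIRM1 moved with them, at 9850 counts over the RA libraries and 1 over the untreated libraries (ratio 8010.1, 95% interval 1437 to 316415). Reads may be shared with overlapping genes, because the strand setting of the counting is unknown. The next tested protein-coding gene beyond that end of the cluster, SKAP2, an adaptor of Src-family kinases, had 286, 292 and 271 CPM in the RA libraries, against 1.07, 3.02 and 1.29 CPM in the untreated libraries (log2 fold change 7.37 ± 0.17 SE, adjusted p = 5.47e-20). Its groups were far apart in every library, though the rule that named it required groups that do not overlap. SKAP2 lies at chr7:26654770-26864590 (GRCh38.p14), 231504 bases from HOTAIRM1. EVX1, on the other flank, had no count with RA and 1.66 CPM without. HOXB1 itself lies at chr17:48528526-48531011. TTLL6, 231223 bases away, was at 9.39 CPM with RA and 10.1 CPM without and was not called.

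**Figure D2:**
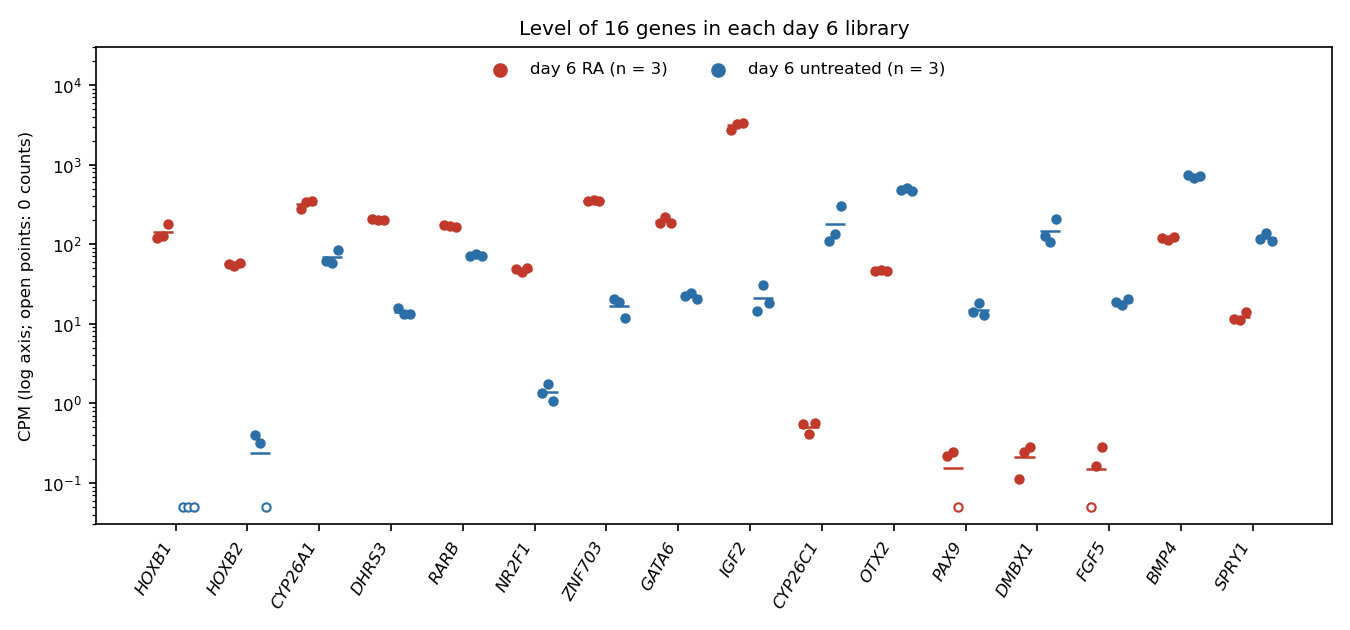
CPM (log axis) of 16 genes in each day 6 library, RA in red at the left of each pair and untreated in blue at the right, with a bar at the group mean. Open points at the foot are libraries with 0 counts. For all 16 genes the 3 RA libraries lie clear of the 3 untreated libraries, as for 57.2% of all tested genes. Some of the 16 were named by a rule that requires groups that do not overlap. HOXB1 spans 118 to 178 CPM against 0, and CYP26C1 0.409 to 0.566 CPM against 109.7 to 297.

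Of the enzymes that remove or store retinoids (RA, retinaldehyde or retinol), 8 were tested, and 5 were higher and 2 lower (median log2 change 0.55, against 0.00 over all tested genes). Leaving out 1 library gave 3 to 5 higher and 1 or 2 lower, the least without RA replicate 2 or untreated replicate 1, with 3 higher and 1 lower. DHRS3, which reduces retinaldehyde back to retinol, had 209, 203 and 204 CPM in the RA libraries, against 15.95, 13.2 and 13.3 CPM in the untreated libraries (log2 fold change 3.86 ± 0.11 SE, adjusted p = 4.01e-18). CYP26A1, an RA-degrading cytochrome P450 and a classical RA target, had 278, 338 and 347 CPM with RA, against 61.4, 58.2 and 84.9 CPM without it (log2 fold change 2.23 ± 0.18 SE, adjusted p = 8.83e-08). Both genes had RA libraries clear of the untreated ones, as did 57.2% of all tested genes in either direction. CYP26B1, a second enzyme of this family, averaged 12.4 ± 2.75 CPM with RA, against 0.258 ± 0.107 CPM in untreated cultures. The third went the other way. CYP26C1 had 0.552, 0.409 and 0.566 CPM in the RA libraries, against 109.7, 135 and 297 CPM in the untreated libraries (log2 fold change -8.49 ± 0.60 SE, adjusted p = 8.32e-08). CYP26C1, at chr10:93060798-93069540, ends 3935 bases before CYP26A1 begins at chr10:93073475. Of the flanking genes, EXOC6 was at 23.9 CPM with RA and 22.2 CPM without and was not called. MYOF was at 277 CPM with RA and 197 CPM without, a log2 fold change of 0.49. In day 9 cultures with CHIR99021 and BMP4 and no RA, CYP26C1 averaged 615 CPM. Of 9 tested enzymes of RA synthesis, 2 rose (22.2%) and 1 fell (11.1%), against 25.3% and 23.4% over all tested genes. The counts were 0 higher and 1 lower without untreated replicate 3 and 1 higher and 0 lower without untreated replicate 1. They were 1 of each without RA replicate 1 or 3. ALDH1A3, one of the dehydrogenases that make RA, was lower, at 3.69 CPM with RA, against 8.797 CPM without (log2 fold change -1.25 ± 0.38). Without untreated replicate 1 its change was -0.62 with adjusted p = 0.151 in edgeR. ALDH1A2, a second dehydrogenase, was at 0.975 CPM with RA, against 1.06 CPM without and was not called.

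Receptors and cofactors gave 5 rises and 4 falls among 13 tested (6 and 2 on TPM). The shares on counts were 38.5% and 30.8%, against 25.3% and 23.4% over all tested genes. RARB, the receptor gene that RA itself induces in many cells, had 176, 171 and 166 CPM in the RA libraries, against 70.1, 75.9 and 71.3 CPM in the untreated libraries (log2 fold change 1.24 ± 0.11 SE, adjusted p = 2.47e-09). RARA averaged 93.7 ± 2.94 CPM with RA, against 34.9 ± 2.55 CPM in untreated cultures (1.42 ± 0.08). RARG averaged 22.9 ± 3.32 CPM with RA, against 13.5 ± 2.33 CPM in untreated cultures (0.77 ± 0.14), so all 3 RAR genes rose. Of the RXR partners, RXRA was at 144 CPM with RA, against 147 CPM without and was not called. RXRB, at 40.8 CPM with RA, against 44.6 CPM without, was not called either. RXRG was at 0 in every RA library, against 1.07, 1.43 and 1.395 CPM in the untreated ones, at least 12.3-fold lower. NRIP1, a corepressor that binds liganded receptors, rose to 145 CPM with RA, against 72.5 CPM without. Among carriers, CRABP2, which delivers RA to receptors, averaged 246 ± 45.8 CPM with RA, against 172 ± 40.95 CPM in untreated cultures. STRA6, the uptake receptor for the retinol carrier of plasma, fell to 17.9 CPM with RA, against 26.4 CPM without. The carrier list held 3 rises and 1 fall among 8 tested.

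The classical RA response element is a direct repeat of the hexamer with 5 bases between (DR5). Promoter windows from RefSeq (GRCh38.p14, 250 bases before to 50 after each start) were available for 12039 of the 15531 tested genes and were searched on both strands for 2 copies of the hexamer in tandem. The hexamer was AGGTCA, its variant AGTTCA, its variant GGGTCA or its variant GGTTCA. A gene can have several windows, 1 for each transcript start. A DR5 stood in 2 of 953 genes called at least 2-fold higher (0.21%), in 0 of 742 called at least 2-fold lower and in 11 of all 12039 (0.0914%). Of all 35116 windows, 0.0883% held one. The 2 genes are RARB and CYP26A1, and their elements are shown because both are members described above. Each line runs 5′ to 3′ on the gene's strand, with the element in capitals. In RARB it reads on the gene's strand and in CYP26A1 on the opposite strand.
RARB DR5: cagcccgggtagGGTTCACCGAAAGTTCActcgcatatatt
CYP26A1 DR5: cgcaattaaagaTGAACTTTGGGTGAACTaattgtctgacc
The RARB stretch is chr3:25428198-25428238 and its element lies 53 to 37 bases before the transcript start at chr3:25428263. The CYP26A1 stretch is chr10:93073791-93073831, with its element 90 to 74 bases before the transcript start at chr10:93073893. That start lies downstream of the first base of the gene given above, so the element is inside the annotated gene; RefSeq gave 2 windows for CYP26A1 and 4 for RARB. Of the other 9 tested genes with a DR5 in the window, 1 was called higher, 2 lower and 6 not at all. Repeats with spacers of 2 or 1 were found in 1 and 2 of the 953 genes and in 6 and 27 of all 12039. A match describes the letters in the window only.

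Genes reported as RA-induced in other cells were mostly higher here: 11 of 18 tested rose and 1 fell, at a median log2 change of 0.92. The 1 fall was lost without untreated replicate 2, RA replicate 1 or RA replicate 3. NR2F1, an orphan nuclear receptor, had 48.8, 44.7 and 50.3 CPM in the RA libraries, against 1.34, 1.75 and 1.07 CPM in the untreated libraries (log2 fold change 5.14 ± 0.30 SE, adjusted p = 2.67e-10). ZNF703, a zinc-finger corepressor, averaged 348 ± 5.69 CPM with RA, against 16.9 ± 4.48 CPM in untreated cultures. Among 14 tested HOX cofactors and TSHZ factors 6 were higher, 3 lower and 5 not called (median log2 change 0.21). MEIS1 averaged 256 ± 16.4 CPM with RA, against 35.7 ± 4.86 CPM in untreated cultures (2.85 ± 0.14). PBX2 fell, to 161 CPM with RA, against 250.3 CPM without. Outside any list, the largest rises included DIO1, a deiodinase of thyroid hormone, at 34.5, 34.3 and 21.9 CPM in the RA libraries. It had 0, 0 and 0 CPM in the untreated libraries and was at least 240.4-fold higher with RA. TNFSF15, a TNF-family cytokine, had 188, 198 and 224 CPM in the RA libraries, against 0.6703, 0.955 and 1.18 CPM in the untreated libraries (log2 fold change 7.72 ± 0.23 SE, adjusted p = 4.11e-16). CD22, known as a B-cell lectin, rose to 282 counts over the RA libraries and 1 over the untreated libraries (ratio 229, 95% interval 40.8 to 9089.6).

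Most regulators of anterior identity fell. Of 30 tested regulators of the anterior endoderm, head and pharyngeal pouches, 23 were lower and 3 higher. The median log2 change was -3.26 (-3.12 with genes that had no count in a group set to their bound). OTX2, which marks the head, had 46.3, 46.8 and 45.7 CPM in the RA libraries, against 478, 505 and 461 CPM in the untreated libraries (log2 fold change -3.38 ± 0.21 SE, adjusted p = 5.85e-09). PAX9, needed for pharyngeal pouches, had 0.221, 0.245 and 0 CPM with RA, against 14.1, 18.3 and 12.8 CPM without it (log2 fold change -6.32 ± 0.46 SE, adjusted p = 9.49e-11). PAX1, its paralogue, averaged 0.223 ± 0.213 CPM with RA, against 118 ± 28.5 CPM in untreated cultures. DMBX1, a homeobox gene of the developing brain, averaged 0.213 ± 0.0908 CPM with RA, against 147 ± 54.7 CPM in untreated cultures. NKX2-3, a pharyngeal and gut homeobox gene, fell to 2 counts over the RA libraries and 217 over the untreated libraries (ratio 0.007495, 95% interval 0.000902 to 0.0274). These 5 genes had no untreated library near any RA library, though the rule that named PAX1, DMBX1 and NKX2-3 required groups that do not overlap. RIPPLY3, which limits TBX1 in posterior pharyngeal endoderm and responds to RA in frog embryos, was among the 3 that rose, at 55.1 ± 11.9 CPM with RA, against 19.3 ± 4.43 CPM in untreated cultures (log2 fold change 1.49 ± 0.34 SE, adjusted p = 0.00283). DACH1, a transcriptional cofactor, also rose (15.8 CPM with RA, against 7.45 CPM without). In day 9 CHIR99021 and BMP4 cultures without RA, OTX2 averaged 324 CPM and PAX1 362 CPM, but PAX9 only 1.597 CPM, nearer to its RA level.

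Posterior foregut regulators rose more often than they fell. Of 25 tested, 12 rose and 3 fell (median log2 change 1.29, or 1.12 with bounds). The 3 falls became 1 without untreated replicate 3, RA replicate 1 or RA replicate 2. ONECUT2, a factor of liver and pancreas, had 153, 161 and 194 CPM in the RA libraries, against 1.47, 0.159 and 1.18 CPM in the untreated libraries (log2 fold change 7.39 ± 0.72 SE, adjusted p = 2.24e-06). MNX1, needed for the dorsal pancreas, had 1145 counts over the RA libraries and 3 over the untreated libraries (ratio 310.4, 95% interval 106 to 1507). RFX6, of the endocrine lineage, had 1232 counts over the RA libraries and 3 over the untreated libraries (ratio 334, 95% interval 114 to 1622). HNF4A, a nuclear receptor of liver and gut, averaged 24.7 ± 6.44 CPM with RA, against 2.61 ± 0.918 CPM in untreated cultures (3.28 ± 0.32). Pan-endoderm regulators gave 10 rises and 6 falls of 20. GATA6, a zinc-finger factor of endoderm and its derivatives, had 186, 221 and 185 CPM with RA, against 21.98, 24.7 and 20.4 CPM without it (log2 fold change 3.16 ± 0.11 SE, adjusted p = 3.87e-16). Its relative GATA4 averaged 204 ± 21.2 CPM with RA, against 27.0 ± 8.85 CPM in untreated cultures. ELF3, an epithelial ETS factor, averaged 101 ± 6.94 CPM with RA, against 8.38 ± 1.598 CPM in untreated cultures. EOMES, a factor of the earliest endoderm, fell to 1.58 CPM with RA, against 9.49 CPM without (log2 fold change -2.59, or -1.97 without untreated replicate 1). Of the 17 tested markers of definitive foregut endoderm 12 rose and 3 fell. Their summed level was 10470 to 11960 CPM with RA and 4833 to 5331 CPM without. Most of that difference came from the keratins KRT8 and KRT18, with mean gains of 3341 and 2143 CPM. CXCR4, a surface marker of definitive endoderm, was one of the 3 that fell, to 73.6 CPM with RA, against 213 CPM without.

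**Figure D3:**
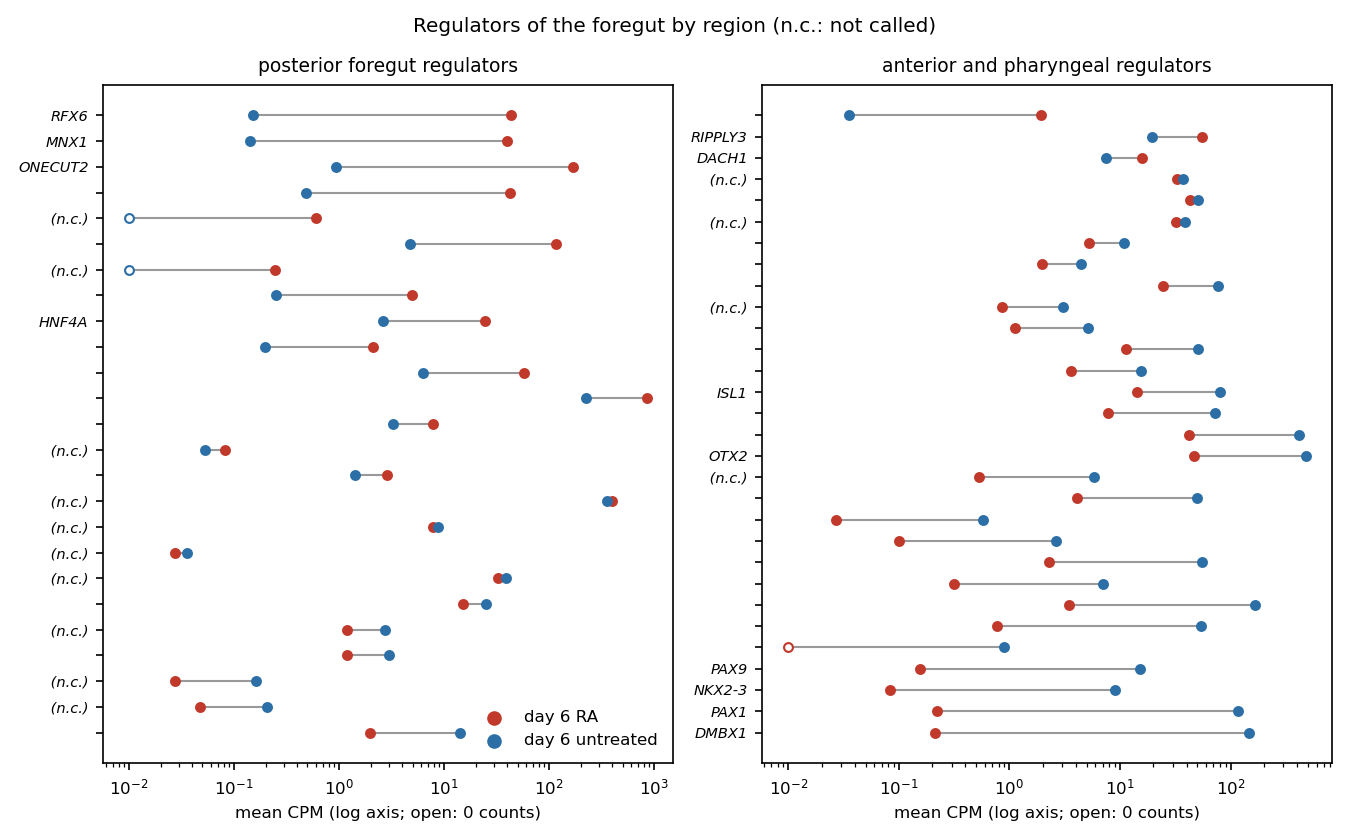
Mean CPM (log axis) of every tested posterior foregut regulator (left) and anterior or pharyngeal regulator (right), ordered by log2 fold change, RA in red and untreated in blue; open points are groups with 0 counts, and n.c. marks genes not called. Genes not named in the text have no name on the axis. At the left 12 of 25 genes were higher with RA, and at the right 23 of 30 were lower.

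Most transcripts of liver-type secreted proteins rose, 17 of 24 tested being higher and 3 lower (median log2 change 2.20). MTTP, which loads lipid onto lipoproteins, had 168, 138 and 129 CPM in the RA libraries, against 0.536, 3.82 and 1.29 CPM in the untreated libraries (log2 fold change 6.37 ± 0.30 SE, adjusted p = 6.87e-11). Its fitted change was 7.23 without untreated replicate 2. APOA2, an apolipoprotein of HDL, averaged 208 ± 21.7 CPM with RA, against 3.82 ± 0.0658 CPM in untreated cultures. FGB, a fibrinogen chain, had 152 counts over the RA libraries and 2 over the untreated libraries (ratio 61.8, 95% interval 16.8 to 515). C3, the complement component, was among the 3 that fell (2.797 CPM with RA, against 9.25 CPM without). In the respiratory and oesophageal list 4 of 14 rose and 8 fell. SOX21, of anterior foregut epithelium, averaged 64.1 ± 10.6 CPM with RA, against 18.4 ± 4.48 CPM in untreated cultures. TP63, of oesophageal basal cells, fell to 0.857 CPM with RA, against 10.8 CPM without. SOX2, of the dorsal foregut and of pluripotent cells, fell to 33.8 ± 6.86 CPM with RA, against 93.6 ± 26.2 CPM in untreated cultures (log2 fold change -1.45 ± 0.35 SE, adjusted p = 0.00398). NKX2-1, the earliest lung marker, was near absent, at 0.111 CPM with RA, against 0.561 CPM without (edgeR adjusted p = 0.0157, or 0.065 without RA replicate 2).

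Feedback genes of FGF signalling, which report ERK activity, were mostly lower, with 11 of 17 down and 2 up. Of the falls, 6 were at least 2-fold, and the median log2 change was -0.42. The summed level of this list overlapped between the groups, at 927 to 1027 CPM with RA and 993 to 1132 CPM without. SPRY1, an inhibitor of receptor tyrosine kinase signals, had 11.4, 11.3 and 13.9 CPM in the RA libraries, against 114, 139 and 109.9 CPM in the untreated libraries (log2 fold change -3.32 ± 0.15 SE, adjusted p = 2.27e-13). SPRY4, of the same family, averaged 9.28 ± 1.85 CPM with RA, against 65.5 ± 4.92 CPM in untreated cultures. ETV5, an ETS factor, averaged 8.95 ± 0.999 CPM with RA, against 51.2 ± 4.95 CPM in untreated cultures. DUSP4, a phosphatase of ERK, was one of the 2 that rose, at 188 ± 20.3 CPM with RA, against 35.5 ± 6.91 CPM in untreated cultures. The other was PHLDA1, at 187 ± 17.5 CPM with RA, against 38.5 ± 5.63 CPM in untreated cultures. Of 17 tested ligands and receptors 8 fell and 2 rose. The ligand FGF5 had 0, 0.163 and 0.283 CPM in the RA libraries, against 18.5, 17.2 and 20.6 CPM in the untreated libraries (log2 fold change -6.94 ± 0.43 SE, adjusted p = 5.59e-12). FGF10, the lung and limb ligand, fell to 7.27 CPM with RA, against 21.5 CPM without. The receptor FGFR3 fell to 24.1 CPM with RA, against 74.1 CPM without. FGFR4, the main FGF receptor of liver, rose to 78.8 ± 7.65 CPM with RA, against 17.98 ± 0.499 CPM in untreated cultures (2.13 ± 0.12). In day 9 CHIR99021 and BMP4 cultures without RA, FGF5 averaged 2.18 CPM, SPRY1 38.7 CPM and ETV5 14.6 CPM, all nearer to their RA levels.

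Most BMP target genes fell as well. Of 18 tested 11 were lower and 2 higher (median log2 change -1.44). The 2 higher became 1 without any 1 of RA replicates 1 and 3 and untreated replicates 1 and 3. Of 29 ligands, receptors and antagonists 12 were lower and 6 higher on counts, but 8 lower and 10 higher on TPM. Without untreated replicate 1 this list gave 10 lower and 3 higher. The ligand BMP4 had 121, 113 and 122 CPM in the RA libraries, against 741, 684 and 718 CPM in the untreated libraries (log2 fold change -2.59 ± 0.14 SE, adjusted p = 3.96e-11). GDF6, another BMP ligand, averaged 1.37 ± 0.631 CPM with RA, against 18.2 ± 2.96 CPM in untreated cultures. Both ligands had every RA library below every untreated one, where 57.2% of all tested genes had no overlap in either direction. In day 9 CHIR99021 and BMP4 cultures without RA, BMP4 transcripts averaged 72.1 CPM, below the day 6 RA level. ID1, a direct SMAD target, had 21.4, 27.6 and 37.4 CPM with RA, against 91.02, 81.2 and 142 CPM without it (log2 fold change -1.89 ± 0.22 SE, adjusted p = 8.06e-06). ID2, a second target of that family, averaged 13.9 ± 1.08 CPM with RA, against 55.01 ± 11.1 CPM in untreated cultures. GATA3, a zinc-finger factor, averaged 20.5 ± 5.49 CPM with RA, against 121 ± 25.8 CPM in untreated cultures. ATOH8, a bHLH factor, was one of the 2 targets that rose, at 8.14 CPM with RA, against 0.963 CPM without. In the Nodal and TGF-beta list 4 of 19 rose and 6 fell on counts, against 9 and 6 on TPM. On counts this was 21.1% and 31.6%, beside 25.3% and 23.4% over all tested genes. CER1, a Nodal and BMP antagonist, fell to 7.09 CPM with RA, against 19.1 CPM without. That call was lost without untreated replicate 1 (edgeR adjusted p = 0.054). TGFB3, a TGF-beta ligand, rose to 20.8 CPM with RA, against 5.11 CPM without.

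Among Wnt ligands and receptors 12 of 26 fell and 5 rose (10 and 8 on TPM). The 5 rises became 3 without RA replicate 2 or untreated replicate 1. The summed level was 2172 to 2309 CPM with RA and 4159 to 4380 CPM without. The mean change of the receptor FZD5 alone, -2290 CPM, was larger than that gap. The sum therefore does not describe the other members. The largest loss in CPM in this list was at the receptor FZD5, with 292, 325 and 326 CPM in the RA libraries, against 2631, 2618 and 2562 CPM in the untreated libraries (log2 fold change -3.05 ± 0.09 SE, adjusted p = 2.12e-17). FZD5 averaged 118 CPM in day 9 CHIR99021 and BMP4 cultures without RA, below its day 6 RA level. FZD4, a second Frizzled receptor, rose, at 530.3 ± 19.3 CPM with RA, against 203 ± 16.7 CPM in untreated cultures. The ligand WNT11 had 15.8, 12.4 and 6.51 CPM with RA, against 0.6703, 0.796 and 0.429 CPM without it (log2 fold change 4.24 ± 0.44 SE, adjusted p = 9.59e-08). Secreted antagonists split. SFRP5, which binds Wnt ligands, averaged 127 ± 12.1 CPM with RA, against 2.36 ± 0.7896 CPM in untreated cultures. DKK1, which blocks the LRP coreceptors, averaged 1.03 ± 0.341 CPM with RA, against 29.4 ± 9.79 CPM in untreated cultures. Over the whole antagonist and feedback list 9 of 23 rose and 8 fell, but 8 and 9 without RA replicate 2 and 7 and 11 without untreated replicate 3.

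Of 17 tested Hedgehog genes 8 fell and 1 rose. The one that rose was the ligand IHH, at 221, 252 and 252 CPM in the RA libraries, against 2.14, 5.41 and 4.29 CPM in the untreated libraries (log2 fold change 5.95 ± 0.43 SE, adjusted p = 9.83e-08). GLI1, a factor and target downstream, fell to 6.97 CPM with RA, against 15.5 CPM without. GLI2, its partner, fell to 15.8 CPM with RA, against 39.4 CPM without. Notch genes gave 4 rises (21.1%) and 7 falls (36.8%) of 19, against 25.3% and 23.4% over all tested genes. LFNG, the glycosyltransferase that tunes Notch receptors, had 7.17, 9.24 and 12.2 CPM with RA, against 97.6, 99.9 and 74.9 CPM without it (log2 fold change -3.27 ± 0.16 SE, adjusted p = 1.03e-13). The ligand JAG1 averaged 71.7 ± 3.304 CPM with RA, against 229.8 ± 20.9 CPM in untreated cultures. The ligand DLL1 rose to 23.02 CPM with RA, against 8.75 CPM without. The repressor HES1 rose to 111 CPM with RA, against 49.4 CPM without.

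**Figure D4:**
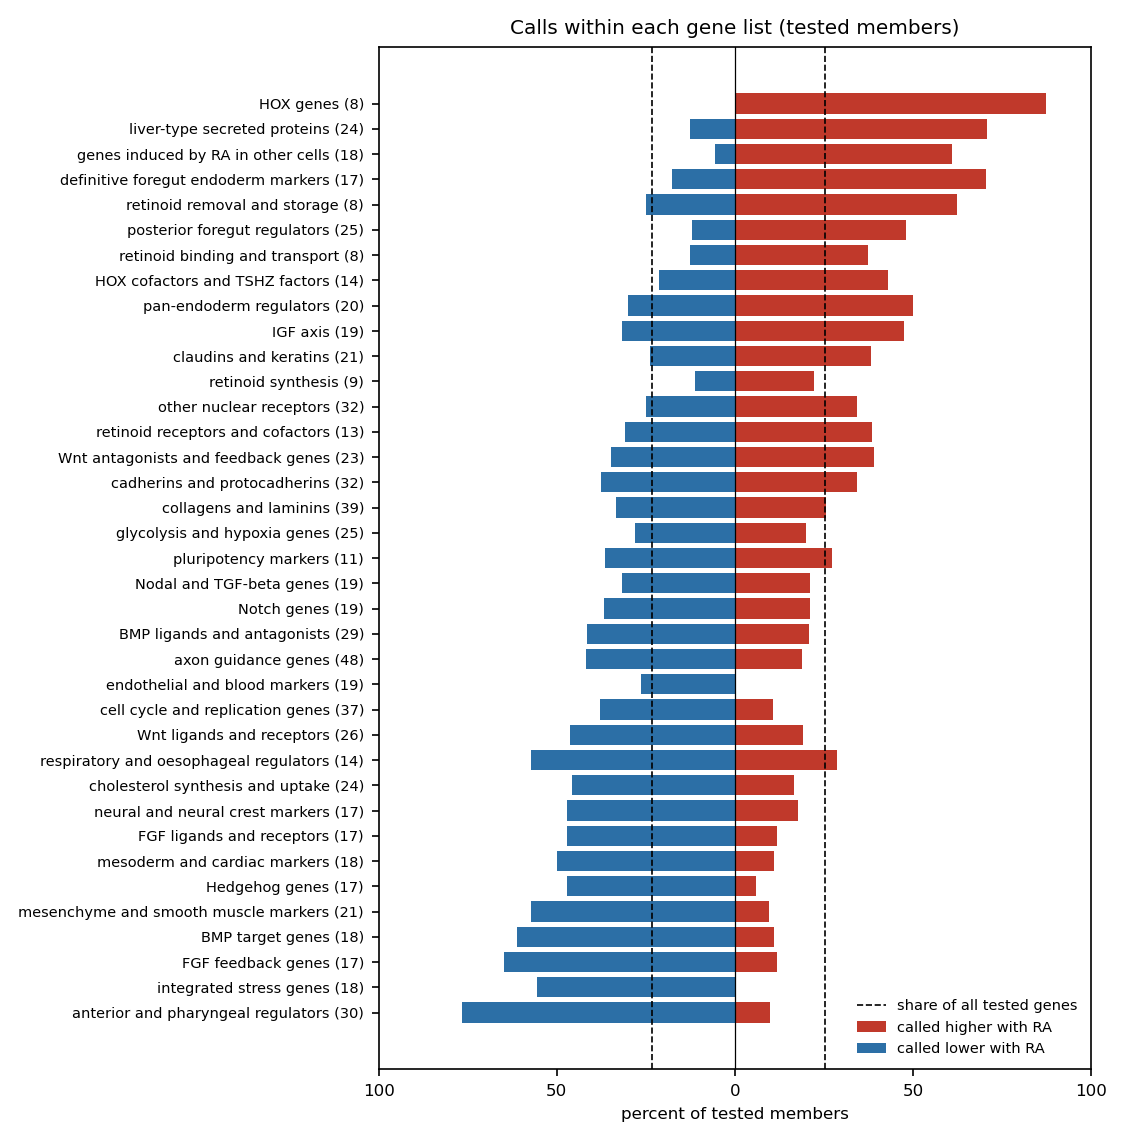
Percent of the tested members of each gene list called higher (red, right) or lower (blue, left) with RA, with the number tested in brackets; dashed lines mark the same shares over all tested genes, 25.3% and 23.4%. HOX genes (7 of 8 higher, all 7 admitted by the filter through groups given RA) stand at the top. The lists of anterior and pharyngeal regulators (23 of 30 lower) stand near the foot.

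Guidance molecules, which in endoderm steer vessels and cell sorting as well as axons, were lower in 20 and higher in 9 of 48 tested (18 and 16 on TPM). NRP2, a coreceptor for semaphorins and VEGF, had 65.1, 64.6 and 83.8 CPM in the RA libraries, against 859, 906 and 1295 CPM in the untreated libraries (log2 fold change -3.85 ± 0.25 SE, adjusted p = 2.21e-08). EFNB2, an ephrin ligand, averaged 46.5 ± 6.68 CPM with RA, against 537 ± 35.8 CPM in untreated cultures (-3.53 ± 0.12). ROBO2, a Slit receptor, rose to 49.3 ± 4.299 CPM with RA, against 6.72 ± 4.04 CPM in untreated cultures. EPHB3, an ephrin receptor, rose to 148 ± 9.71 CPM with RA, against 39.2 ± 2.54 CPM in untreated cultures. Cadherins and protocadherins gave 11 rises (34.4%) and 12 falls (37.5%) of 32, against 25.3% and 23.4% over all tested genes. They gave 12 and 10 on TPM, and 7 rises without untreated replicate 3. CDH26, a cadherin, was at 30.3 ± 4.61 CPM with RA, against 0.454 ± 0.164 CPM in untreated cultures. PCDH8, a protocadherin, was at 0.129 ± 0.123 CPM with RA, against 65.1 ± 13.2 CPM in untreated cultures.

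Keratins of simple epithelia were among the largest gains in counts. KRT8 had 4814, 5564 and 5591 CPM in the RA libraries, against 2186, 1874 and 1885 CPM in the untreated libraries (log2 fold change 1.43 ± 0.10 SE, adjusted p = 4.26e-11). Its partner KRT18 averaged 2924 ± 244 CPM with RA, against 780.4 ± 80.7 CPM in untreated cultures (1.91 ± 0.11). Both have many processed copies, and reads may be split between them. The 36 KRT8 pseudogenes summed to 1210 CPM with RA and 971 CPM without. The 61 KRT18 pseudogenes summed to 622 CPM with RA and 350 CPM without, so the copies were also higher with RA. KRT7, a keratin of ducts and other simple epithelia, had 175, 223 and 201 CPM with RA, against 2.28, 1.11 and 3.86 CPM without it (log2 fold change 6.27 ± 0.55 SE, adjusted p = 8.33e-07). In the claudin and keratin list 8 of 21 rose (38.1%) and 5 fell (23.8%), against 25.3% and 23.4% over all tested genes. CLDN2, of leaky epithelia, averaged 11.5 CPM with RA, against 0.651 CPM without. CLDN1, of tight ones, averaged 1.34 CPM with RA, against 11.4 CPM without. VIM, the intermediate filament of mesenchyme and of many cultured cells, rose to 847 ± 15.1 CPM with RA, against 234 ± 17.2 CPM in untreated cultures. The cytoplasmic actins fell. ACTB averaged 2138 ± 36.1 CPM with RA, against 4178 ± 247 CPM in untreated cultures. ACTG1 averaged 3085 ± 49.8 CPM with RA, against 5038 ± 311 CPM in untreated cultures. Among collagens and laminins 10 of 39 rose and 13 fell on counts, but 13 and 10 on TPM, and 10 and 8 without RA replicate 1. The rises on counts were 25.6%, near the 25.3% of all tested genes, and the falls 33.3%, against 23.4%. LAMB3, a laminin chain of epithelial anchorage, averaged 7.83 ± 1.82 CPM with RA, against 0.303 ± 0.0301 CPM in untreated cultures. COL18A1, a basement membrane collagen, averaged 1943 ± 75.6 CPM with RA, against 1008 ± 169 CPM in untreated cultures. COL3A1, the fibrillar collagen of stroma, averaged 97.1 ± 21.9 CPM with RA, against 264 ± 26.3 CPM in untreated cultures. The COL3A1 call (edgeR adjusted p = 0.0367) was lost without any 1 of the 6 libraries, at adjusted p = 0.053 to 0.11.

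The insulin-like growth factor axis held several of the largest gains in counts. IGF2, a fetal growth factor, had 2703, 3277 and 3375 CPM in the RA libraries, against 14.3, 30.2 and 18.5 CPM in the untreated libraries (log2 fold change 7.24 ± 0.28 SE, adjusted p = 4.12e-11). The lowest RA library stood far above the highest untreated one. In day 9 CHIR99021 and BMP4 libraries without RA it averaged 15.2 CPM. Several binding proteins, which hold these factors outside the cell, rose with it. IGFBP5 averaged 3086 ± 231 CPM with RA, against 630.5 ± 208 CPM in untreated cultures. IGFBP2 was at 822 ± 74.3 CPM with RA, against 128 ± 13.7 CPM in untreated cultures. IGFBP6 was at 275 ± 25.99 CPM with RA, against 18.8 ± 7.68 CPM in untreated cultures. In all, 9 of 19 tested members of this axis rose and 6 fell. The receptor adaptor IRS2 fell to 34.1 CPM with RA, against 72.2 CPM without. A second adaptor, IRS4, fell to 3.92 CPM with RA, against 17.3 CPM without. Of 32 other nuclear receptors 11 rose (34.4%) and 8 fell (25.0%), against 25.3% and 23.4% over all tested genes. THRB, a thyroid hormone receptor, averaged 0.843 ± 0.172 CPM with RA, against 20.5 ± 2.88 CPM in untreated cultures (-4.64 ± 0.23). NR3C1, the glucocorticoid receptor, averaged 3.66 ± 0.677 CPM with RA, against 28.03 ± 6.15 CPM in untreated cultures (-2.92 ± 0.18). NR2C1, an orphan receptor, rose to 238 CPM with RA, against 94.3 CPM without. The lysosomal protease CTSB was another large gain, at 1312 ± 134 CPM with RA, against 228 ± 11.5 CPM in untreated cultures.

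A gene of glucose uptake and one of glucose trapping moved in opposite directions. SLC2A3, a high-affinity glucose transporter, had 740.5, 642 and 742 CPM in the RA libraries, against 4332, 4296 and 3947 CPM in the untreated libraries (log2 fold change -2.57 ± 0.12 SE, adjusted p = 6.35e-14), the largest loss in CPM of any called gene that the naming rule admits. HK2, which traps glucose in the cell, had 233, 246 and 259 CPM with RA, against 47.5, 52.2 and 46.6 CPM without it (log2 fold change 2.34 ± 0.11 SE, adjusted p = 4.13e-14). Over the glycolysis and hypoxia list 5 of 25 rose and 7 fell, close to the shares over all tested genes, and on TPM 8 rose and 4 fell. Genes of the integrated stress response were lower in 10 of 18 and higher in 0 (edgeR, and 0 also at an unadjusted p below 0.05 and with DESeq2). On TPM, or without RA replicate 3 or untreated replicate 1, 1 was higher. VLDLR, a lipoprotein receptor in this list, averaged 42.1 ± 0.942 CPM with RA, against 151 ± 7.19 CPM in untreated cultures. DDIT3, the stress factor CHOP, averaged 6.86 ± 0.282 CPM with RA, against 15.6 ± 1.995 CPM in untreated cultures. Of 24 genes of cholesterol synthesis and uptake 11 fell and 4 rose on counts, mostly by less than 2-fold, but 4 fell and 7 rose on TPM. ABCA1, the cholesterol exporter, was at 383 ± 14.1 CPM with RA, against 186 ± 14.4 CPM in untreated cultures. Cell cycle and replication genes fell in 14 of 37 and rose in 4 (9 and 7 on TPM), with 2 rises without untreated replicate 2 or 3. MCM6, of the replicative helicase, averaged 234 ± 13.99 CPM with RA, against 367 ± 12.95 CPM in untreated cultures. MYCN, a growth regulator, rose to 138 ± 34.0 CPM with RA, against 41.3 ± 5.49 CPM in untreated cultures.

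Markers of other cell types varied from list to list, against 25.3% higher and 23.4% lower over all tested genes. Of 18 tested mesoderm and cardiac markers 9 fell and 2 rose, with a summed level of 110 to 132 CPM with RA and 351 to 425 CPM without. The 2 rises became 1 without RA replicate 2 or untreated replicate 3. ISL1, of cardiac progenitors and pharyngeal endoderm, averaged 14.3 ± 2.16 CPM with RA, against 80.03 ± 23.7 CPM in untreated cultures. FOXC1, a mesoderm forkhead factor, averaged 23.2 ± 2.64 CPM with RA, against 142 ± 18.1 CPM in untreated cultures. Of 21 mesenchyme and smooth muscle markers 12 fell and 2 rose, VIM and PDGFRA. Their sum was 1477 to 1668 CPM with RA and 1457 to 1661 CPM without. Of 19 endothelial and blood markers 5 fell and 0 rose (edgeR, and 0 also at an unadjusted p below 0.05 and with DESeq2, which called 6 lower). Without RA replicate 2 this was 3 lower, and without untreated replicate 2, or on TPM, 1 was higher. Their sum was 111 to 202 CPM with RA and 375 to 468 CPM without. CD34, of vessels and blood progenitors, had 12.6, 4.33 and 14.3 CPM with RA, against 68.1, 86.9 and 86.5 CPM without it (log2 fold change -3.02 ± 0.56 SE, adjusted p = 6.68e-04). HBB, a globin chain, had 0.993, 0 and 0 CPM with RA, against 67.2, 7.003 and 37.6 CPM without it, was not called (adjusted p = 0.0591) and spread widely among the untreated libraries. GATA1, a defining factor of red cells, had no count in any day 6 library. Pluripotency markers gave 3 rises and 4 falls of 11. Among them LIN28A, an RNA-binding protein, averaged 1847 ± 45.9 CPM with RA, against 2889.9 ± 267 CPM in untreated cultures. Neural and neural crest markers gave 3 rises and 8 falls of 17 (median log2 change -0.53). DCX, of young neurons, was one of the 3 that rose against the trend of this list. It averaged 46.9 ± 2.71 CPM with RA, against 5.89 ± 2.02 CPM in untreated cultures. SOX1, which defines early neural tissue, had no count. The part of these cells in the differences above was not tested.

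RA had been absent for 72 h by day 9. Whether its effect differed between the days was tested as an interaction, which was called for 7906 of the 15531 genes (50.9%). CYP26A1 changed direction between the days. At day 9 it averaged 2.43 CPM with RA and 125 CPM without (RA by day -7.99 ± 0.34, edgeR adjusted p = 6.91e-11). DHRS3 was at 46.1 CPM with RA and 20.1 CPM without by then (interaction -2.68). TNFSF15 stood at 17.3 CPM with RA and 2.61 CPM without (interaction -5.30). SKAP2 stood at 12.7 CPM with RA and 2.50 CPM without (interaction -5.06). HOXB1 was down to 0.304 CPM with RA and 0 CPM without, too few counts for the interaction to be estimated. IGF2 kept its difference, at 1216 CPM with RA and 9.37 CPM without (interaction -0.02, edgeR adjusted p = 0.975). Several falls had turned into rises. JAG1 was at 729 CPM with RA and 87.96 CPM without at day 9 (interaction 4.74). NRP2 was at 773 CPM with RA and 369 CPM without (interaction 4.91). CLDN1 was at 72.5 CPM with RA and 10.2 CPM without (interaction 5.74). The transporter gene SLC2A3 was at 6009.6 CPM with RA and 3606 CPM without (interaction 3.30). By the naming rule the largest interactions towards a higher level with RA at day 9 were at heart muscle genes, MYH6, SMYD1, MYBPC3 and UNC45B. UNC45B had no count with RA at day 6, against 0.693 CPM without. MYH6, a cardiac myosin heavy chain, had been at 0.738 CPM with RA, against 1.52 CPM without at day 6, not called, and was at 723 CPM with RA and 0.197 CPM without at day 9. In the other direction they were at PI15, TCF21, VWA5B1 and CDH26, each higher with RA at day 6 and lower at day 9.

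**Figure D5:**
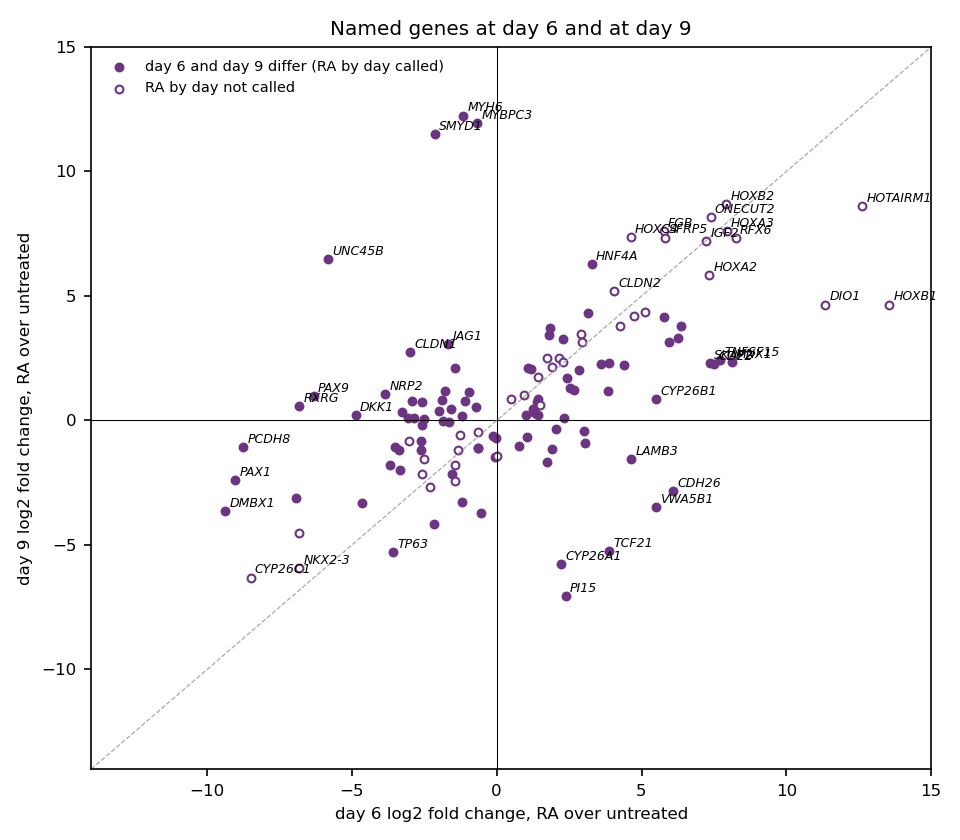
Log2 fold change (RA over untreated) at day 6 on the horizontal axis and at day 9 on the vertical axis for the genes named in the text; filled points have a called RA-by-day interaction, and the dashed line marks equal change. CYP26A1 (2.23 and -5.76) and CDH26 (6.09 and -2.84) lie below the axis at the right, MYH6 (-1.16 and 12.24) at the upper left.

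A comparison within libraries of like pseudogene reads, chosen after seeing the data, set day 9 cultures given RA before CHIR99021 and BMP4 against cultures given CHIR99021 and BMP4 alone. It shares no library with day 6. There 21.2% of all tested genes were called higher and 22.1% lower with earlier RA. Of the 1296 genes at least 2-fold higher at day 6, 516 (39.8%) were called higher there and 143 (11%) lower. Of the 1213 at least 2-fold lower, 609 (50.2%) were called lower and 99 (8.16%) higher. Of the 124 called genes named in the text, 80 were called in the same direction there, 17 in the opposite direction and 27 not at all. GATA6, DHRS3 and ZNF703 were among those called higher in both. DMBX1, PAX1, OTX2 and CYP26C1 were among those called lower in both. CYP26A1, higher at day 6, was lower there (log2 fold change -7.51, edgeR adjusted p = 8.41e-11), and SOX2 and FZD5, lower at day 6, were higher. HOXB1 was not called there (edgeR adjusted p = 0.0888).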

How the data were processed

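Per the labels' protocols, libraries came from the TruSeq stranded mRNA kit on RNA extracted with Nucleospin columns. The authors deposited raw counts per gene and TPM (transcripts per 1000000) for 18 libraries and 35025 genes. The submitters' processing notes name STAR 2.7.9 and the build GRCh38. How reads were counted, on which annotation and strand, is not given in the sources used here. The 36 genes without a symbol stayed out.

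Counts were fitted in R 4.3.3 with edgeR 4.0.16 over all 18 libraries, with 1 mean per group, trimmed mean of M-values factors, a filterByExpr minimum of 10 counts and robust quasi-likelihood dispersions. Adjusted p is Benjamini-Hochberg's over the 15531 tested genes. SE is the absolute log2 fold change divided by the square root of F. With 0 counts in a group, folds are bounds against 3 counts over that group. With 1 to 3 counts, count ratios have exact 95% intervals, which cover counting error only. Named genes were the 12 largest rises and falls of at least 5 CPM with groups that do not overlap, the 8 largest gains and losses in CPM, up to 3 rises and falls per list, retinoid and HOX genes, the 4 largest RA-by-day interactions each way and 16 fixed genes; not all are described, and some are not reported here. Members and lists were chosen with earlier results of these data known. The cholesterol, stress and other lists carry no set test. DESeq2 1.42.0 and limma 3.58.1, on log2(TPM + 1), served as alternatives.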

Additional observations from a re-analysis of the deposited data

Results flagged for a closer look

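Among the 132 genes named above by the naming rule, 24 were called in opposite directions at day 6 and at day 9, with a called difference between the days (edgeR interaction, log2, day 9 minus day 6). Among all genes at least 2-fold higher at day 6, 186 of 1296 (14.4%) did so. Among those at least 2-fold lower, 259 of 1213 (21.4%) did. PI15, TCF21, VWA5B1, CDH26 and UNC45B were named because their interactions were among the largest. Of the 24, 10 were higher with RA at day 6 and lower at day 9. The difference was -9.45 for PI15, -9.13 for TCF21, -8.99 for VWA5B1, -8.93 for CDH26 and -7.99 for CYP26A1. It was -3.93 for DCX, -3.40 for MYCN, -3.07 for EPHB3, -1.78 for RARG and -1.70 for ABCA1. PI15 was low at day 6, at 0.950 CPM with RA and 0.169 CPM without.

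The other 14 were lower with RA at day 6 and higher at day 9. The difference was 12.32 for UNC45B, 7.29 for PAX9, 5.74 for CLDN1, 4.91 for NRP2 and 4.74 for JAG1. It was 3.72 for NR3C1, 3.55 for COL3A1, 3.30 for SLC2A3, 2.99 for C3 and 2.69 for ID1. It was 2.40 for ID2, 2.12 for ACTB, 1.88 for IRS2 and 1.25 for ACTG1. UNC45B had no count in the RA libraries at day 6, against 0.693 CPM without. Its 12.32 is therefore a fitted value that rests on a group at 0.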

How the results depend on the processing

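The 7571 calls and the 2509 at least 2-fold stayed within 1.5 times under every alternative but one: the covariate for pseudogene reads called 95 genes, all at least 2-fold, and gave 2739 of the 7571 the other sign. It reversed the log2 fold changes of HOXB1 (-22.2), HOXA2 (-16.1), HOXC4 (-13.7), KRT7 (-6.29), TCF21 (-5.44), CRABP2 (-2.96), RIPPLY3 (-2.21), CLDN2 (-1.84), CYP26A1 (-0.69), MYCN (-0.65), ATOH8 (-0.56), MYOF (-0.37), IRS4 (0.047), TP63 (0.046), UNC45B (0.41), LIN28A (0.75), ALDH1A3 (1.74) and SOX2 (2.59), none past the threshold; the groups do not overlap in the covariate, so the fit extrapolates. Leaving out 1 library gave 6621 to 7055 calls, 2429 to 2602 at least 2-fold and 7368 to 7886 for RA by day. With the replicate block, which same-numbered libraries do not bear out as pairs (correlations -0.0478, -0.0244 and 0.022), 7529, 2526 and 7813 genes were called, and HBB and SMYD1 became called (adjusted p = 0.0202 and 0.0487). On TPM 64.2% of 2-fold calls were higher, against 51.7%. For RA by day the share higher was 41.7% with upper quartile factors, where the median was shifted by -0.12, and 58.4% on TPM, against 48.8%. On TPM, STRA6 and NKX2-1 lost their calls (adjusted p = 0.0937 and 0.0601) and HBB gained one (0.0185); with only the 6 libraries, CRABP2 and ALDH1A3 lost theirs (0.103 and 0.0517) and HBB gained one (0.024). The list counts stayed within 1.5 times in 74 of 74 cases with either other scaling and in 57 of 74 on TPM. Depth limited genes under the filter, such as HOXB4 and HOXB5.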
